A study of Rattus norvegicus with 9 samples.

Results

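Interferon-stimulated genes, the antiviral and immune genes that cells turn on when an interferon binds its receptor, were examined in rat endometrium as a list of 44 genes picked by name. The list holds 2-5A synthetases, other antiviral effectors, antiviral GTPases, genes of the ISG15 and ADP-ribosylation systems, RNA and DNA sensors, transcription factors and chemokines. Of the 44, 43 were found by symbol among the 22250 rows of the read count table, and all 43 passed the filter on low counts that kept 14232 genes. Oas1b had no row under that symbol and was not analysed here. Reads of near-identical copies within the Oas, Mx, Gbp and Ifit families may be split between genes, so levels of single members of these families are uncertain.

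The study measured poly-A selected RNA of uterine endometrium from Sprague-Dawley rats aged 10 weeks, in 3 groups of 3 libraries. NER animals received saline in place of both drugs and later olive oil. LER animals received hydroxyurea, an inhibitor of DNA synthesis, by gavage at 450 mg/kg per day for 10 days and adrenaline under the skin at 0.3 mg/kg per day from day 4 to day 10, followed by olive oil. LER+LIG animals received the same hydroxyurea and adrenaline and then LIG at 40 mg/kg per day by gavage from gestation day 0.5. The series title names the compound as ligustilide, a phthalide of Angelica and Ligusticum roots. Females of all 3 groups were mated after the drug course, and the labels give neither the day of collection nor whether each library came from 1 animal, so p-values speak only to the variation among libraries, which may be technical. The comparisons ask what the drug course did (LER against NER) and what LIG did on top of it (LER+LIG against LER). LER libraries serve as the control of the second comparison and as the treated arm of the first, so the estimates of the 2 comparisons are not independent.

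Interferon-alpha and interferon-beta signal through the receptor pair IFNAR1 and IFNAR2, which activates a complex that includes STAT2 and IRF9. This complex binds the interferon-stimulated response element (ISRE) in promoters. Interferon-gamma signals through IFNGR1 and IFNGR2 and acts on promoters that hold the gamma-activated sequence (GAS), and it is the main inducer of the guanylate-binding proteins, IRF1 and the chemokine CXCL9. In the uterus of several mammals, interferon-stimulated genes are known to be expressed around the time of implantation, and interferon-epsilon is produced by the epithelium of the female reproductive tract under hormonal control.

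Promoter sequences from RefSeq, build GRCr8, spanned 250 bases before to 50 bases after each gene's start and were found by symbol for 35 of the 44 listed genes, including Oas1b. The ISRE was searched as GAAANNGAAA and the GAS as TTCNNNGAA, both on either strand and with overlapping matches kept. An ISRE match lay in 22 of the 35 promoters, or 62.9%, against 1312 of 33469 RefSeq promoters, or 3.92%. A GAS match lay in 12 of the 35, or 34.3%, against 2970 promoters, or 8.87%. The promoters of 5 antiviral genes are shown because their levels went different ways across the libraries while each holds an ISRE match. Ifi44, a cytoplasmic protein with antiviral activity, lies at chr2:243303791-243304090 on the minus strand. Ifit3, which joins the IFIT complex that binds viral RNA, lies at chr1:241527076-241527375 on the plus strand. Ifitm3, a membrane protein that blocks virus entry, lies at chr1:205541709-205542008 on the minus strand. Irf7, the factor that amplifies interferon transcription, lies at chr1:205799974-205800273 on the minus strand. Rsad2, the radical SAM enzyme viperin, lies at chr6:48788071-48788370 on the minus strand. Each sequence reads 5′ to 3′ on the gene's own strand, and capitals mark the ISRE matches.
Ifi44: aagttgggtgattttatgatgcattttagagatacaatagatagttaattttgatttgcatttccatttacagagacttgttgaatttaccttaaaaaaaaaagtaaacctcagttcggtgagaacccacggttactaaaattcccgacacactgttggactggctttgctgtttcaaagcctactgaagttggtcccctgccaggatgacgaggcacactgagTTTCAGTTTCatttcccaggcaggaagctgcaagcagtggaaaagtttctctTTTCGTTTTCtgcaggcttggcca
Ifit3: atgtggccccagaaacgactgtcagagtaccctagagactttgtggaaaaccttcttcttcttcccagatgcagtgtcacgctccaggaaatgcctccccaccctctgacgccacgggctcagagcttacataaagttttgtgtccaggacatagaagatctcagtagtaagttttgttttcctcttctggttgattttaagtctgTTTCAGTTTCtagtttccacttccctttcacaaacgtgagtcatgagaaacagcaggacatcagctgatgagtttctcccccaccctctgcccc
Ifitm3: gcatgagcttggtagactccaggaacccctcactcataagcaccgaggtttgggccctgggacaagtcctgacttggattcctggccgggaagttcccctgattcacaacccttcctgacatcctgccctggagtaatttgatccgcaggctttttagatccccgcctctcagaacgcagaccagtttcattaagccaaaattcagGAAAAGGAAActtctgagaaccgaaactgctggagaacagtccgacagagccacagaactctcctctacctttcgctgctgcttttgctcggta
Irf7: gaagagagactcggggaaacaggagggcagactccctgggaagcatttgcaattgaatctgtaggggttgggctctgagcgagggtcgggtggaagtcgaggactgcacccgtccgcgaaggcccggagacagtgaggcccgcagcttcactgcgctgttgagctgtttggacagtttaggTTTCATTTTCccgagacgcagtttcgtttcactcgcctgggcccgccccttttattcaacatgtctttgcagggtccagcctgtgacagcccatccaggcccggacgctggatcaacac
Rsad2: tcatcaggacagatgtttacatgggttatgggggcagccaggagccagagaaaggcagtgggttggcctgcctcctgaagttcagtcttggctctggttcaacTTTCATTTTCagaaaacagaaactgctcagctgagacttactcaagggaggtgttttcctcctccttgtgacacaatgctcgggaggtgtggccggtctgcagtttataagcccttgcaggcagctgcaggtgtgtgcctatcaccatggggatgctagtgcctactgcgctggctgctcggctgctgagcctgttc
Ifi44 holds one match on each side of its start, the first base of the upstream one at position -26. In Ifit3 the match begins at -44 and in Ifitm3 it also begins at -44, while in Irf7 it begins at -69 and in Rsad2 at -147. Ifi44 and Ifit3 share the same 10 letters, TTTCAGTTTC, which the Oasl2 promoter also holds, at -151. Read on the other strand these letters are GAAACTGAAA, which Oas1a, Oas1b, Bst2, Igtp and Dtx3l hold. Mx1, Ifi35, Parp9 and Stat2 had no match to either motif in this window, and Irf1, Irf9 and Cxcl9 held a GAS match only.

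NER replicate 3 and LER+LIG replicates 2 and 3 stood apart over the whole transcriptome. On the first principal component of log2 CPM (depth-normalised read counts, with library sizes scaled by TMM), which held 44.4% of the variance, these 3 libraries lay between 71.3 and 84.5 and the other 6 between -68.1 and -28.7. Read as a group, the members were highest in the same 3 libraries. The median member lay, in log2 CPM, 1.01 above the LER mean in NER replicate 3, 0.96 above it in LER+LIG replicate 2 and 1.22 above it in LER+LIG replicate 3. In the other 6 libraries the medians were -0.09 and 0.25 in NER replicates 1 and 2, 0.23, -0.18 and -0.09 in LER, and -0.06 in LER+LIG replicate 1. These 3 libraries were the 3 highest of the 9 for 25 of the 43 members, or 58.1%, against 1510 of all 14232 tested genes, or 10.6%. For 38 of the 43 members, or 88.4%, the single highest library was one of these 3 (47.0% of all genes), namely LER+LIG replicate 3 for 20, NER replicate 3 for 11 and LER+LIG replicate 2 for 7. In bulk tissue fewer cells of a type and less RNA per cell cannot be told apart.

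Counts of this pattern were also taken by the interferon type that usually leads. Of 20 tested members of a type I core list, 17 had these 3 libraries on top, or 85%, against 10.6% of all genes. Of 7 members that lean towards interferon-gamma (Gbp2, Gbp4, Gbp5, Igtp, Irf1, Irf8 and Cxcl9) 1 did, or 14.3%, near the share of all genes. None of the 3 chemokines did, and Cxcl9 is counted among these too. The lists were drawn up with earlier results of these data known, and the difference between them was not tested.

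**Figure D1:**
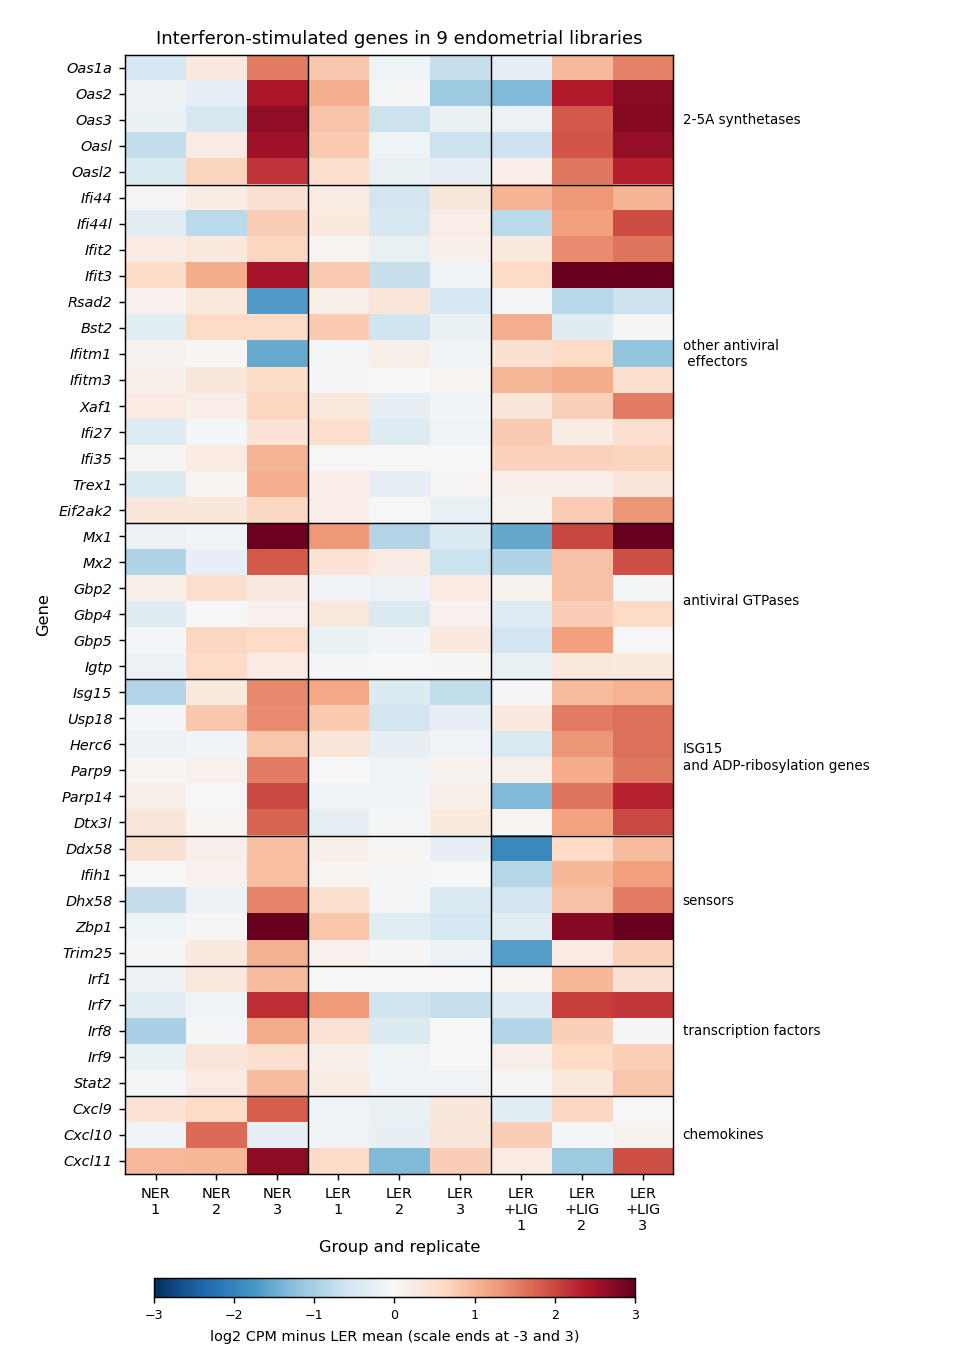
Log2 CPM of each of 43 interferon-stimulated genes (rows, grouped by role) in each of the 9 libraries (columns), shown as the difference from the gene's LER mean, with red above and blue below and the scale ending at -3 and 3. NER replicate 3 and LER+LIG replicates 2 and 3 form the red columns, and LER+LIG replicate 1 is the lowest LER+LIG library in 33 of the rows.

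Over the 43 members, 42 had a positive log2 fold change in LER+LIG against LER, with a median of 0.78, while the median over all 14232 genes was 0.07 and 54.9% of genes were positive. Rsad2 was the exception. With edgeR (quasi-likelihood, p adjusted by Benjamini-Hochberg over all genes) no member passed an adjusted p under 0.05, the smallest member value being 0.334, and neither did any other gene (0%, smallest adjusted p 0.0515). At an unadjusted p under 0.05, 11 of the 43 members were higher and none lower, against 7.21% of all genes higher and 5.28% lower. DESeq2's Wald test called 3 members higher (Ifit3, Ifi44 and Ifitm3), against 147 of the 15329 genes it adjusted, or 0.959%. In 8 members (Ifi44, Ifit2, Ifitm3, Xaf1, Ifi35, Parp9, Irf1 and Irf9) all LER+LIG libraries lay above all LER libraries, against 10.4% of all genes. None lay entirely below, against 10.0%. Dropping LER+LIG replicate 3 lowered the member median to 0.51 and the members at an unadjusted p under 0.05 to 4 (9.30%, against 10.7% of genes), and dropping LER+LIG replicate 1 gave a median of 1.03 and 22 such members (51.2%, against 21.7%). That count was 6 when LER+LIG replicate 2 was dropped (14.0%, against 15.2%) and 4 when LER replicate 2 or LER replicate 3 was (9.30%, against 5.40% and 8.68%).

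In LER against NER, 38 of 43 members had a negative log2 fold change, with a median of -0.44 against -0.02 over all genes. No gene passed an adjusted p under 0.05 in edgeR (0%), and 1 member, Cxcl9, had an unadjusted p under 0.05, against 0.871% of all genes. DESeq2 called 0 members and 2 genes in all, or 0.0113%. In 6 members (Ifit2, Ifitm3, Ifi35, Eif2ak2, Cxcl9 and Cxcl11) all LER libraries lay below all NER libraries, against 3.37% of all genes. The size of this difference rested on NER replicate 3, since without it the member median was -0.10, whereas without NER replicate 1 it was -0.67.

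Between LER+LIG and NER, 32 of 43 members had a positive estimate, with a median of 0.33 against 0.04 over all genes. No gene passed in edgeR (0%), and 3 members (Ifi44, Ifit2 and Ifitm3) had an unadjusted p under 0.05, against 5.45% of all genes. DESeq2 called 0 members and 15 genes in all, or 0.0979%. Ifi44 was the only member with all LER+LIG libraries above all NER libraries, a pattern that 4.17% of genes showed. Leaving out LER+LIG replicate 3 turned this median to -0.04, leaving out NER replicate 1 gave 0.0095, NER replicate 2 0.14, NER replicate 3 0.70 and LER+LIG replicate 1 0.62.

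**Figure D2:**
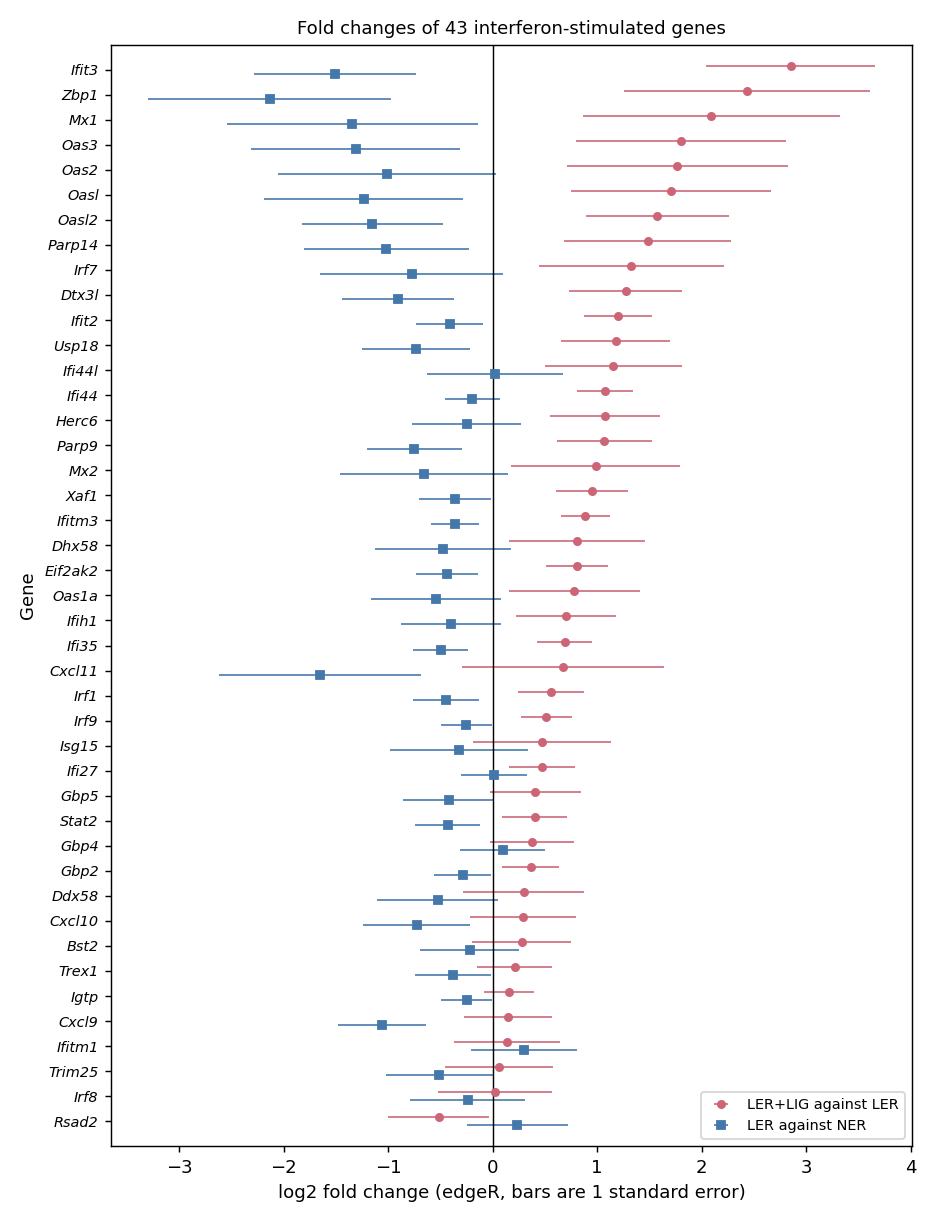
Log2 fold change of each of 43 interferon-stimulated genes (rows, ordered by LER+LIG against LER) from edgeR, with bars of 1 standard error, for LER+LIG against LER (circles) and LER against NER (squares). The circles lie right of 0 for 42 genes and the squares left of 0 for 38, with the LER libraries shared by both comparisons.

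The 2-5A synthetases make the 2′-5′ oligoadenylates that activate RNase L, and OASL proteins are relatives that act on RNA sensing. All 5 measured members had the same 3 libraries on top, against 10.6% of all genes. Oasl2 was at 16.4, 34.7 and 97.4 CPM in NER, 30.4, 18.5 and 17.98 CPM in LER and 24.7, 64.9 and 109.9 CPM in LER+LIG. NER replicate 3 and LER+LIG replicates 2 and 3 exceeded every other library, and LER+LIG replicate 1 lay within the LER range. The log2 fold change was 1.58 ± 0.68 (SE) for LER+LIG against LER, with edgeR adjusted p = 0.393. Oas3 was at 1.80, 1.46 and 13.97 CPM in NER, 3.87, 1.27 and 1.78 CPM in LER and 1.83, 7.75 and 14.6 CPM in LER+LIG. Oasl was at 4.70, 9.44 and 46.96 CPM in NER, 13.8, 7.16 and 4.98 CPM in LER and 5.06, 29.6 and 50.1 CPM in LER+LIG. For both genes LER+LIG overlapped LER through replicate 1, and their estimates of 1.80 ± 1.01 and 1.71 ± 0.96 had edgeR adjusted p of 0.485 and 0.486. Oas1a was at 13.8, 23.9 and 58.03 CPM in NER, 35.2, 18.3 and 12.2 CPM in LER and 16.4, 39.5 and 57.1 CPM in LER+LIG, with LER replicate 1 the highest of its group. Its estimate was 0.78 ± 0.63 with edgeR adjusted p = 0.619. Oas2 spread from 2.66 CPM in LER+LIG replicate 1 to 45.1 CPM in LER+LIG replicate 3.

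Among the other antiviral effectors stood the members whose groups separated most clearly. Ifi44 was at 35.1, 40.5 and 47.3 CPM in NER, 40.4, 23.4 and 43.4 CPM in LER and 70.1, 85.8 and 70.3 CPM in LER+LIG. Every LER+LIG library exceeded every library of the other groups, including NER replicate 3. LER+LIG averaged 75.4 ± 9.03 CPM (SD, n = 3), LER 35.7 ± 10.8 CPM and NER 40.98 ± 6.13 CPM. Its log2 fold change against LER was 1.08 ± 0.27, with adjusted p = 0.334 in edgeR and 0.0319 in DESeq2, and against NER it was 0.88 ± 0.26 with an unadjusted p of 0.00846 and adjusted p = 0.868 in edgeR.

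Ifitm3 was the most abundant member per gene length, at a mean of 790.3 FPKM over the 9 libraries. It was at 452, 515 and 591 CPM in NER, 386, 401 and 428 CPM in LER and 802, 878 and 564 CPM in LER+LIG. LER lay below both other groups without overlap, and LER+LIG replicate 3 lay between the NER libraries. The estimates were -0.36 ± 0.23 for LER against NER (edgeR adjusted p = 1.00) and 0.89 ± 0.23 for LER+LIG against LER (adjusted p = 0.334 in edgeR and 0.0319 in DESeq2). Ifi35, a partner of the interferon-induced protein NMI, was at 23.5, 27.2 and 46.2 CPM in NER, 22.8, 23.2 and 22.5 CPM in LER and 37.3, 36.7 and 36.6 CPM in LER+LIG. Its LER and LER+LIG libraries each lay within a narrow band and did not overlap, and LER+LIG replicate 1 was as high as the other LER+LIG libraries. Ifi35, at 1071 bases, is a short gene, and short genes as a class were raised in LER+LIG replicate 1, as given below. The LER+LIG against LER estimate was 0.69 ± 0.27 with edgeR adjusted p = 0.364 and DESeq2 adjusted p = 0.268.

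IFIT proteins bind foreign RNA and block its translation. Ifit2 was at 36.9, 39.1 and 48.8 CPM in NER, 32.4, 26.7 and 34.8 CPM in LER and 38.4, 82.8 and 95.1 CPM in LER+LIG, with LER the lowest group and no overlap with either other group. Its estimates were -0.41 ± 0.32 in LER against NER and 1.20 ± 0.33 in LER+LIG against LER, the latter with adjusted p = 0.334 in edgeR and 0.0534 in DESeq2. Ifit3 was at 6.49, 9.75 and 25.04 CPM in NER, 7.67, 2.68 and 4.12 CPM in LER and 6.64, 45.2 and 52.9 CPM in LER+LIG. LER+LIG replicate 1 lay inside the LER range while replicates 2 and 3 were above every other library. The estimate of 2.85 ± 0.81 was the largest of the 43 in this comparison, with adjusted p = 0.341 in edgeR and 0.0145 in DESeq2.

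Xaf1, a pro-apoptotic zinc-finger protein, was at 15.5, 15.1 and 20.6 CPM in NER, 16.5, 11.1 and 12.3 CPM in LER and 16.9, 21.6 and 38.6 CPM in LER+LIG. Its LER+LIG libraries lay above LER without overlap, the lowest by a small margin, with an estimate of 0.95 ± 0.35 and edgeR adjusted p = 0.361. Eif2ak2, the double-stranded RNA-activated kinase PKR, was at 78.6, 78.3 and 95.3 CPM in NER, 70.98, 62.3 and 53.3 CPM in LER and 66.0, 106 and 155 CPM in LER+LIG. All LER values lay below all NER values, LER+LIG replicate 1 lay among the LER values, and the LER+LIG against LER estimate was 0.81 ± 0.30 with edgeR adjusted p = 0.361.

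Some effectors ran against the shared library pattern. Rsad2 was at 43.3, 49.3 and 12.1 CPM in NER, 44.9, 50.9 and 27.4 CPM in LER and 38.1, 22.1 and 25.8 CPM in LER+LIG. NER replicate 3 was its lowest library and LER+LIG replicates 2 and 3 were the next lowest, the reverse of the order seen for the synthetases, and its estimate was -0.52 ± 0.48 with edgeR adjusted p = 0.673. Ifitm1, a cell-surface relative of IFITM3, was at 352, 339 and 115 CPM in NER, 320.1, 369 and 301 CPM in LER and 449, 495 and 145 CPM in LER+LIG. It was lowest in NER replicate 3 and LER+LIG replicate 3 but highest in LER+LIG replicate 2. Bst2, tetherin, which holds budding virions at the cell surface, was at 90.1, 173 and 172 CPM in NER, 196, 76.4 and 101 CPM in LER and 246, 88.6 and 118 CPM in LER+LIG. Its highest library was LER+LIG replicate 1, and the estimates of Ifitm1 and Bst2 for LER+LIG against LER were 0.14 ± 0.51 and 0.28 ± 0.47, each smaller than its standard error. Ifi44l, Ifi27 and Trex1 had estimates of 1.15 ± 0.66, 0.47 ± 0.31 and 0.21 ± 0.36, with edgeR adjusted p from 0.49 to 0.834.

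**Figure D3:**
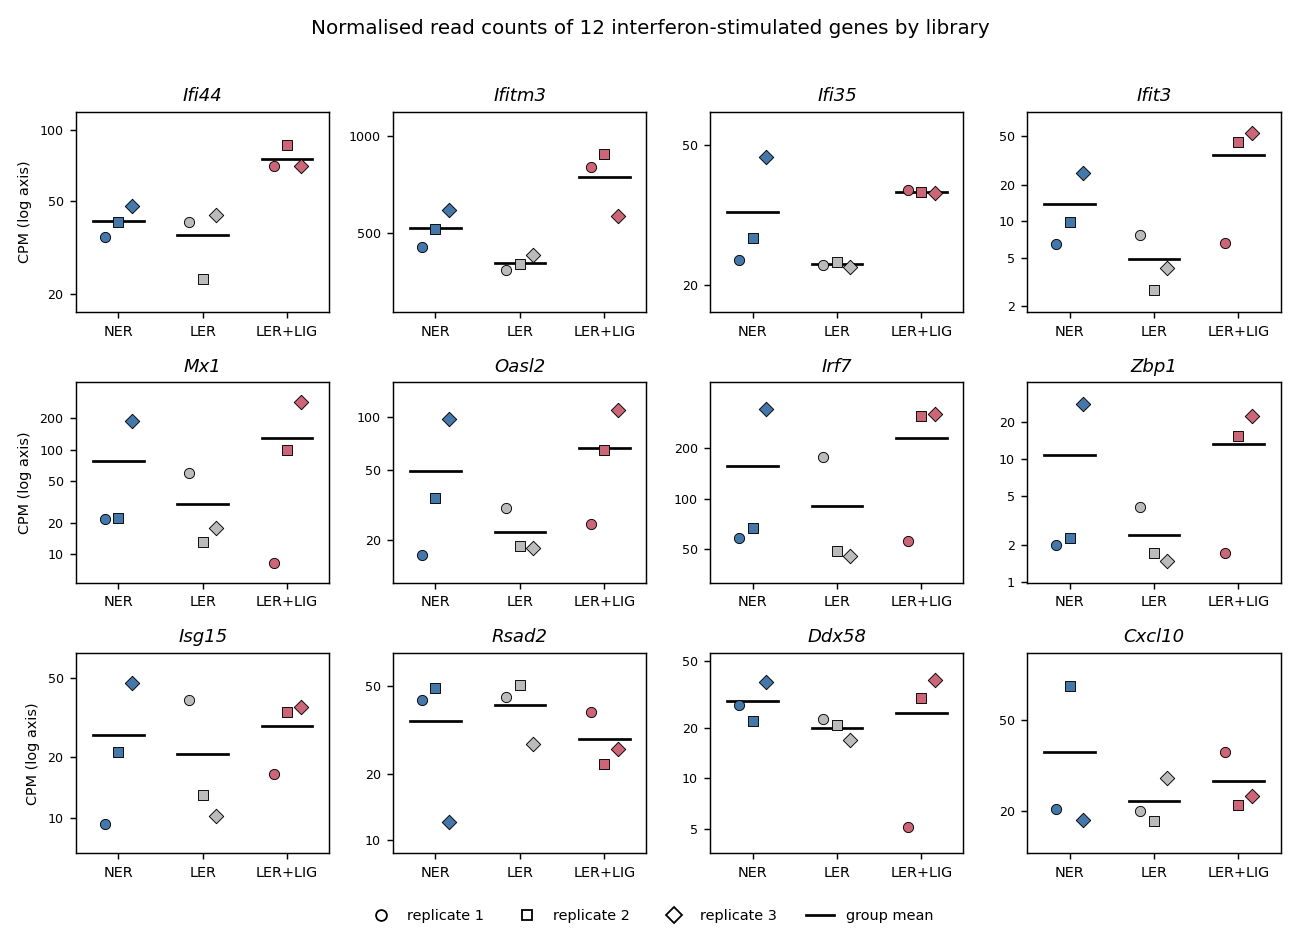
CPM of 12 interferon-stimulated genes in each library on log axes, with circles, squares and diamonds for replicates 1, 2 and 3 and lines at the group means. All LER+LIG points lie above all LER points for Ifi44, Ifitm3 and Ifi35, whereas for Ifit3, Mx1, Oasl2, Irf7, Zbp1 and Ddx58 LER+LIG replicate 1 lies within or below the LER points.

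Among the antiviral GTPases, Mx proteins are dynamin-like GTPases that trap viral nucleocapsids. Mx1 was at 21.6, 22.5 and 188 CPM in NER, 60.4, 13.2 and 17.98 CPM in LER and 8.30, 98.7 and 284 CPM in LER+LIG. LER+LIG replicate 1 was the lowest of the 9 libraries and LER+LIG replicate 3 the highest. The estimate of 2.09 ± 1.23 had edgeR adjusted p = 0.498, and it was 0.81 without LER+LIG replicate 3. Mx2 was at 30.7, 48.3 and 207 CPM in NER, 76.2, 68.9 and 36.7 CPM in LER and 30.97, 106 and 223 CPM in LER+LIG, again with LER+LIG on both sides of LER and an estimate of 0.99 ± 0.81 (edgeR adjusted p = 0.627). Guanylate-binding proteins and immunity-related GTPases, which interferon-gamma induces strongly, had smaller estimates. Gbp2 was at 139.8, 176 and 152 CPM in NER, 120.3, 112 and 151 CPM in LER and 136, 234 and 124 CPM in LER+LIG. Only LER+LIG replicate 2 stood above the rest, and the estimate was 0.36 ± 0.27 with edgeR adjusted p = 0.593. Igtp, an immunity-related GTPase of cell-autonomous defence in mice, was at 54.5, 92.8 and 73.2 CPM in NER, 60.7, 61.8 and 63.1 CPM in LER and 53.3, 77.5 and 75.9 CPM in LER+LIG, with an estimate of 0.16 ± 0.24 and edgeR adjusted p = 0.813. Gbp4 and Gbp5 had estimates of 0.37 ± 0.40 and 0.41 ± 0.43, and Gbp5 was highest in LER+LIG replicate 2 at 50.9 CPM.

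ISG15 is a ubiquitin-like modifier, USP18 removes it and dampens IFNAR signalling, and HERC6 is its ligase in mice. Isg15 was at 9.32, 21.3 and 47.3 CPM in NER, 38.9, 12.98 and 10.2 CPM in LER and 16.6, 33.8 and 35.9 CPM in LER+LIG. LER replicate 1 was higher than LER+LIG replicates 2 and 3, so the groups overlapped, and the estimate was 0.47 ± 0.66 with edgeR adjusted p = 0.789, or 1.28 without LER replicate 1. Usp18 was at 13.5, 24.95 and 37.99 CPM in NER, 24.6, 9.64 and 11.8 CPM in LER and 17.4, 41.8 and 44.9 CPM in LER+LIG. LER replicate 1 again exceeded LER+LIG replicate 1, with an estimate of 1.18 ± 0.52 and edgeR adjusted p = 0.398. Herc6 gave 1.08 ± 0.53 (edgeR adjusted p = 0.43).

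PARP9, an ADP-ribosyltransferase family member, works in a complex with the ubiquitin ligase DTX3L. Parp9 was at 98.1, 100.1 and 267 CPM in NER, 91.1, 86.9 and 98.4 CPM in LER and 103, 199 and 278 CPM in LER+LIG. Dtx3l was at 66.4, 54.3 and 174 CPM in NER, 42.9, 50.8 and 63.2 CPM in LER and 54.96, 119 and 205 CPM in LER+LIG. Both were highest in the same 3 libraries, and LER+LIG lay above LER without overlap for Parp9 only. Their estimates for LER+LIG against LER were 1.07 ± 0.46 and 1.27 ± 0.54, with edgeR adjusted p of 0.392 and 0.39. Parp14, a mono-ADP-ribosyltransferase, ranged inside LER+LIG from 28.2 CPM in replicate 1, below every other library, to 350.5 CPM in replicate 3. Its estimate was 1.48 ± 0.79 with edgeR adjusted p = 0.471.

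Among the sensors, Zbp1, which detects Z-form nucleic acids and can start necroptosis, was at 2.00, 2.28 and 27.9 CPM in NER, 4.07, 1.74 and 1.49 CPM in LER and 1.74, 15.4 and 22.6 CPM in LER+LIG. NER replicate 3 and LER+LIG replicates 2 and 3 exceeded all the other libraries, of which the highest was LER replicate 1. Its estimates were -2.13 ± 1.17 in LER against NER and 2.44 ± 1.18 in LER+LIG against LER (edgeR adjusted p of 1.00 and 0.428), and the first became 0.18 without NER replicate 3. Ddx58, the RNA sensor RIG-I, was at 27.3, 22.04 and 37.3 CPM in NER, 22.4, 20.9 and 16.8 CPM in LER and 5.15, 30.1 and 38.6 CPM in LER+LIG. Ifih1, the long-RNA sensor MDA5, was at 21.1, 23.2 and 40.2 CPM in NER, 22.4, 20.3 and 21.2 CPM in LER and 11.6, 42.4 and 49.8 CPM in LER+LIG. For both, LER+LIG replicate 1 was the lowest of the 9 libraries, so LER+LIG lay on both sides of LER, and the estimates were 0.30 ± 0.58 and 0.70 ± 0.48 (edgeR adjusted p of 0.855 and 0.56), that of Ddx58 becoming -0.18 with LER+LIG replicate 3 dropped. Dhx58, their regulator LGP2, was at 8.91, 12.9 and 41.5 CPM in NER, 20.5, 14.1 and 10.8 CPM in LER and 9.88, 27.1 and 42.6 CPM in LER+LIG, with an estimate of 0.81 ± 0.65 and edgeR adjusted p = 0.621. Trim25, a ubiquitin ligase in RIG-I signalling, was at 18.3 CPM in LER+LIG replicate 1 against 50.96 CPM or more in every other library, and its estimate was 0.06 ± 0.51.

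Of the transcription factors, Irf7 was at 58.6, 67.3 and 339.7 CPM in NER, 177, 48.7 and 45.6 CPM in LER and 55.9, 309 and 317 CPM in LER+LIG. LER replicate 1 lay well above the other LER libraries, and the estimate of 1.33 ± 0.89 (edgeR adjusted p = 0.551) became 2.24 without it. Irf9, the DNA-binding part of the complex with STAT2, was at 41.7, 61.9 and 67.7 CPM in NER, 53.2, 43.4 and 47.3 CPM in LER and 54.3, 72.8 and 78.7 CPM in LER+LIG. All its LER+LIG libraries exceeded all its LER libraries, replicate 1 by a small margin, with an estimate of 0.52 ± 0.24 and edgeR adjusted p = 0.422. Stat2 was at 68.8, 86.3 and 138 CPM in NER, 83.7, 67.2 and 66.96 CPM in LER and 70.2, 89.3 and 129 CPM in LER+LIG, where LER+LIG overlapped LER, and the estimate was 0.40 ± 0.31 with edgeR adjusted p = 0.602. Irf1 was at 42.7, 59.2 and 91.7 CPM in NER, 47.8, 47.4 and 46.98 CPM in LER and 50.1, 94.1 and 64.9 CPM in LER+LIG. LER was nearly constant and lay below LER+LIG without overlap, with an estimate of 0.56 ± 0.32 and edgeR adjusted p = 0.491. Irf8, a factor of myeloid and B cells, was at 20.9, 40.3 and 89.6 CPM in NER, 55.5, 30.9 and 41.3 CPM in LER and 22.2, 67.6 and 39.9 CPM in LER+LIG, with no separation and an estimate of 0.02 ± 0.55.

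CXCL9, CXCL10 and CXCL11 recruit lymphocytes through the receptor CXCR3. Cxcl9 was at 17.5, 19.4 and 45.1 CPM in NER, 11.7, 11.2 and 16.3 CPM in LER and 10.3, 20.1 and 13.1 CPM in LER+LIG. LER lay below NER without overlap, with NER replicate 3 far above the others, and the LER against NER estimate was -1.06 ± 0.42 with an unadjusted p of 0.033 and edgeR adjusted p = 1.00, or -0.49 without NER replicate 3. For LER+LIG against LER it was 0.15 ± 0.42, or -0.19 when LER+LIG replicate 2 was dropped. Cxcl10 was at 20.2, 70.4 and 18.2 CPM in NER, 20.02, 18.1 and 27.7 CPM in LER and 36.3, 21.1 and 23.3 CPM in LER+LIG. It was highest in NER replicate 2, and its LER+LIG against LER estimate was 0.29 ± 0.51 with edgeR adjusted p = 0.836, or -0.015 with LER+LIG replicate 1 dropped. Cxcl11 was the least abundant member per gene length, at a mean of 1.32 FPKM, and was at 1.86, 1.90 and 6.51 CPM in NER, 1.43, 0.268 and 1.56 CPM in LER and 1.08, 0.340 and 3.79 CPM in LER+LIG. The 2 lowest values, in LER replicate 2 and LER+LIG replicate 2, rest on 4 and 5 reads, and the LER+LIG against LER estimate of 0.67 ± 0.96 was smaller than its standard error and became -0.62 once LER+LIG replicate 3 was dropped. All 3 chemokines had negative estimates for LER+LIG against NER, from -0.98 to -0.43, with Cxcl9 at -0.91 ± 0.42 and an unadjusted edgeR p of 0.0577 (adjusted p = 0.868).

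LER+LIG replicate 1 differed from replicates 2 and 3 in most members. It was the lowest LER+LIG library for 33 of 43 members, against 41.5% of all tested genes. It lay below all 3 LER libraries for 14 members and above all 3 for 12, shares of 32.6% and 27.9% against 40.5% and 37.8% of all genes. By comparison LER+LIG replicate 2 lay above all 3 LER libraries for 36 members (83.7%, against 39.3% of genes), LER+LIG replicate 3 for 33 (76.7%, against 39.6%) and NER replicate 3 for 37 (86.0%, against 35.2%). Within LER, replicate 1 was the highest library for 28 members, or 65.1%, against 37.3% of all genes. In that library the 4 tested adipocyte markers, of 5 listed, summed to 523.6 CPM, against 2.27 to 82.0 CPM in the other 8. Their part in the values was not tested.

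In LER+LIG replicate 1 the difference from LER also moved with gene length over the whole transcriptome. Its median log2 difference from the LER mean was 0.37 in the shortest length class of tested genes, up to 1968 bases. It was -0.02 in the middle class and -0.33 in the longest class, from 3792 bases. In every other library the class medians lay between -0.09 and 0.13. Its deposited FPKM summed to 605152, and those of the other 8 libraries to between 472730 and 497230. The 15 members in the shortest class had a median of 0.30 in this library, the 17 in the middle class -0.39 and the 11 in the longest class -0.28. Ifi44, at 4663 bases, lay above the trend, and Ddx58, at 1794 bases, lay below it. Ifitm3, Ifi35, Xaf1 and Irf9, whose LER+LIG libraries all lay above LER, are in the shortest class, which was raised in this library. Their differences from the LER mean in it were 0.99, 0.70, 0.37 and 0.18, beside the class median of 0.37 over all genes. The part of gene length in these differences was not tested beyond a fit with a length offset, in which 0 members passed edgeR's adjusted p under 0.05 and the member median for LER+LIG against LER was 0.74.

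**Figure D4:**
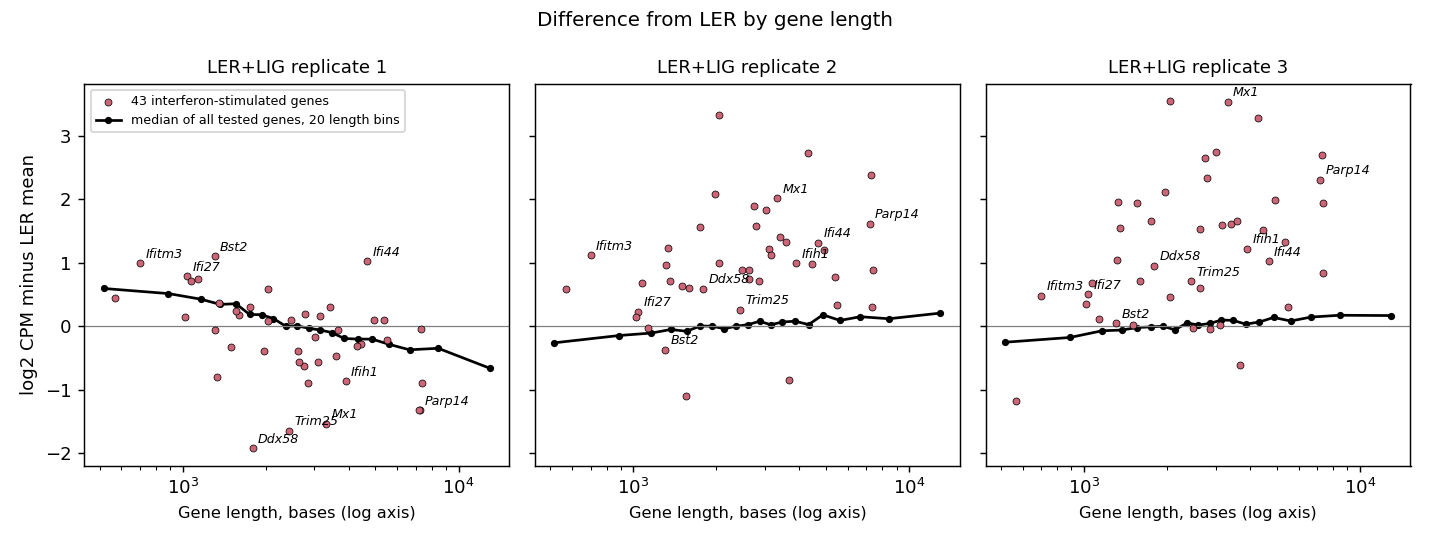
Difference in log2 CPM from the LER mean against gene length (log axis, bases) for 43 interferon-stimulated genes (points) and the median of all tested genes in 20 length bins (line), for each LER+LIG library. The line slopes down in LER+LIG replicate 1 and rises slightly in replicates 2 and 3, where most points lie above it.

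With NER replicate 3 and LER+LIG replicates 2 and 3 all left out, LER+LIG was a single library whose spread was taken to equal that of the other groups, and the comparison with LER described that library. The member median was then -0.14 with 19 of 43 positive. The LER+LIG libraries left out were those with the higher member medians, so a lower median was set by that choice. In that setting edgeR called 7 members, or 16.3%, against 26.7% of all genes tested, so members were not called at a rate above the background. Of the 7, Ifi44, Ifitm3 and Ifi35 were higher and Parp14, Ddx58, Ifih1 and Trim25 lower. With the length offset added, 4 members were called, Ifi44 higher and Parp14, Ddx58 and Trim25 lower, or 9.30% against 22.4% of all genes.

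The interferon genes, upstream of the members, were low or had no reads. Of 9 interferon genes listed, all had a row. Ifnb1, Ifna1, Ifna2, Ifna5 and Ifna11 had 0 counts in every library, where 3 counts would equal 0.19 to 0.249 CPM, and Ifng, Ifna4 and Ifnk reached at most 4 counts in a library. Ifne, interferon-epsilon, was the only one tested, at 0.622, 0.570 and 2.46 CPM in NER, 0.950, 0.535 and 0 CPM in LER and 0.415, 4.01 and 2.78 CPM in LER+LIG. The same 3 libraries were its highest, and its LER+LIG against LER estimate was 2.26 ± 1.18 with edgeR adjusted p = 0.457.

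Of 6 receptor chains 5 had positive estimates in LER+LIG against LER, and 3 of them, Ifngr1, Ifngr2 and Il10rb, lay above LER without overlap, against 10.4% of all genes. Ifngr1, the ligand-binding chain for interferon-gamma, was at 119.7, 111 and 201 CPM in NER, 122, 109 and 126 CPM in LER and 158, 299 and 238 CPM in LER+LIG, with an estimate of 0.96 ± 0.30 and edgeR adjusted p = 0.356. The interferon-alpha and -beta chains Ifnar1 and Ifnar2 overlapped between the groups, at 150.3, 136 and 126 CPM in NER, 125, 123 and 149 CPM in LER and 132, 206 and 163 CPM in LER+LIG for Ifnar1, and had estimates of 0.34 ± 0.21 and 0.06 ± 0.24.

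Of 9 kinases, STATs and feedback genes 4 were positive and 5 negative in LER+LIG against LER, and 1 was called by DESeq2, which called 1.94% of genes in either direction. This was Socs3, the feedback inhibitor of JAK kinases, at 41.1, 47.9 and 41.2 CPM in NER, 55.4, 61.03 and 41.9 CPM in LER and 21.3, 17.8 and 19.4 CPM in LER+LIG. Every LER+LIG library lay below every other library, and the estimate was -1.44 ± 0.21 with adjusted p = 0.334 in edgeR and 3.54e-06 in DESeq2. Of 12 measured genes of the pathways that induce interferon, 11 were positive and none was called by either tool. They include Sting1, the adaptor of DNA sensing, at 1.27 ± 0.44 with edgeR adjusted p = 0.358, and Tbk1, the kinase that phosphorylates IRF3, at 0.64 ± 0.18 with edgeR adjusted p = 0.341. A further list of 33 tested interferon-stimulated genes outside the 44 had 30 positive estimates with a median of 0.62 and 0 called by either tool. The same 3 libraries were on top for 19, or 57.6%, against 10.6% of all genes.

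Markers of some cell types and of hormone state moved with the same 3 libraries. These were the 3 highest for 6 of 13 macrophage and dendritic cell markers and 4 of 6 uterine epithelial markers. The same count was 1 of 8 for tested T cell markers and 0 of 6 for natural killer cell markers. It was 1 of 6 for neutrophil markers and 0 of 4 for endothelial markers, against 10.6% of all genes. Summed CPM of 13 macrophage and dendritic cell markers was 473 to 1512 in NER, 506 to 765 in LER and 788 to 1143 in LER+LIG, with NER replicate 3 and LER+LIG replicates 2 and 3 the highest, and none of the 13 was at 0. The 6 uterine epithelial markers summed to 427 to 2495 CPM in NER, 488 to 832 in LER and 441 to 1726 in LER+LIG, with the same 3 on top. Of 6 oestrogen-responsive uterine genes listed, 5 were tested. They summed to 141 to 4588 CPM in NER, 104 to 138 in LER and 75.6 to 13849 in LER+LIG, highest in those 3 libraries. Gene by gene, those were the 3 highest libraries for 3 of the 5, and 1 of the 5 had a negative estimate for LER+LIG against LER. The 7 progesterone-responsive genes had medians of -3.75, -2.92 and -4.92 in these 3 libraries relative to the LER mean. In the other 6 libraries the medians lay between -0.31 and 0.55. The list was split, with 3 positive and 4 negative estimates for LER+LIG against LER.

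The 5 plasmacytoid dendritic cell markers summed to 2.28 to 8.54 CPM in NER, 3.41 to 8.62 in LER and 3.55 to 6.89 in LER+LIG. The 6 endometrial stroma markers were present in all libraries, at 30125 to 37228 CPM in NER, 25859 to 39173 in LER and 6192 to 39539 in LER+LIG. Their medians relative to the LER mean were lowest in the same 3 libraries, at -0.75 in NER replicate 3, -1.34 in LER+LIG replicate 2 and -0.53 in LER+LIG replicate 3, against -0.32 to 0.43 in the other 6. The 5 smooth muscle markers summed to 8783 to 17032 CPM over the 9 libraries and were lowest in LER+LIG replicates 2 and 3. The summed CPM of the 6 tested neutrophil markers, of 7 listed, was higher in every LER+LIG library than in any other library. It was 52.2 to 126.5 in LER+LIG, against 17.2 to 47.9 elsewhere. Of these 6 markers, 2 had LER+LIG above LER without overlap, against 10.4% of all genes. Of 7 natural killer cell markers listed, 6 were tested. They summed to 33.8 to 74.7 CPM in NER, 17.8 to 26.0 in LER and 27.8 to 45.6 in LER+LIG, LER libraries below all others. The part of these markers in the values of the interferon-stimulated genes was not tested.

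The authors' deposited table marks genes as up or down, and in all its rows these marks matched a log2 fold change of 1 or more in either direction at an unadjusted p under 0.05. Of the 43 members with a value for LER+LIG against LER, the authors' deposited table marked 12 higher and none lower, beside 4.59% of all its genes higher and 3.37% lower. The 12 were Oas3, Oasl, Oasl2, Ifi44, Ifit2, Ifit3, Mx1, Usp18, Parp9, Parp14, Dtx3l and Zbp1. For LER against NER the authors' deposited table marked 5 of 41 members lower (Oasl2, Ifit3, Parp14, Cxcl9 and Cxcl11) and none higher, against 1.35% of genes lower and 0.336% higher.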

How the data were processed

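Poly-A selected endometrial RNA was measured in 9 libraries, grouped by the sample titles. Per the file headers, the authors deposited whole-number read counts and FPKM per gene. For each gene the authors also deposited a log2 fold change and an unadjusted p-value, used only where it is named. The FPKM equalled the count over a gene length and the library total, to a largest relative difference of 7.3e-15, and gave the gene lengths. The aligner, counter, strand setting and build were not given in the sources used here, and reads of overlapping or antisense genes cannot be told apart.

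Total counts were 13241537 to 15354085 per library, of which unnamed rows held up to 0.00306%. Counts were analysed with edgeR 4.0.16 in R 4.3.3, using filterByExpr, TMM factors of 0.867 to 1.05, robust glmQLFit over all 9 libraries and glmQLFTest, with Benjamini-Hochberg adjustment over 14232 genes and a threshold of 0.05. CPM values are TMM-scaled, log2 CPM used a prior count of 2, and standard errors are the fold change over the root of F. DESeq2 1.42.0 was the alternative, beside other scalings, no filter, each replicate left out and a replicate block. Further alternatives were 3 libraries left out together and a length offset (loess, span 0.5), alone or with those libraries left out. The 3 libraries were the ones that stood apart in these data, and both uses of the length offset were chosen after seeing the data. The procedure was also run on simulated counts with known fold changes. The simulation had no libraries that stood apart, unlike these data, so it cannot show how the tests behave here. The members and all gene lists were chosen with earlier results of these data known. Values by library are given for the 3 members of each role with the smallest p for LER+LIG against LER, for a set of well-known members and for members called by a tool, and for other members chosen after their values were seen (Oas2, Ifi35, Xaf1, Eif2ak2, Rsad2, Ifitm1, Bst2, Irf8, Parp14, Trim25 and Gbp5). Every pair of libraries differed by more than sampling noise (chi-square over degrees of freedom 17.9 or more).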

Additional observations from a re-analysis of the deposited data

How the results depend on the processing

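Of 665 fold changes of named members taken under an alternative, 619 kept their direction and their side of the threshold, 8 became called and 38 changed sign. Part of the 619 was set in advance. An adjusted p under 0.10 reuses the main fold changes, and some fits drop only a library of the group outside the comparison. edgeR called 0 members in every comparison under every other scaling, no filter, 2-group fits, each library left out, the length offset and an adjusted p under 0.10. DESeq2 called 3 members for LER+LIG against LER, and over all genes it called 298 there, 2 in LER against NER and 15 in LER+LIG against NER. Upper-quartile scaling, no filter, an adjusted p under 0.10 and the length offset each gave 1 gene for LER+LIG against LER in edgeR, and leaving out a library gave 0 to 1. The replicate numbers were not taken to pair the libraries, since in no pair of groups did all same-number correlations of deviations exceed 0.1. They were -0.0954, -0.0185 and -0.0431 between NER and LER, 0.349, -0.189 and 0.512 between NER and LER+LIG, and 0.19, 0.107 and 0.0739 between LER and LER+LIG, where each library correlated best with its own number, a hint from the data and not from the design. With a replicate block edgeR called 0 genes in each comparison, and the member medians were -0.34 (LER against NER), 0.51 (LER+LIG against LER) and 0.37 (LER+LIG against NER). Leaving out 1 library moved these medians between -0.67 and -0.10, between 0.51 and 1.03, and between -0.0413 and 0.70. Single members changed sign without 1 library in ranges of -0.62 to 1.14 for Cxcl11, -0.015 to 0.495 for Cxcl10, -0.19 to 0.34 for Cxcl9 and -0.18 to 0.74 for Ddx58 in LER+LIG against LER, and -2.72 to 0.18 for Zbp1 in LER against NER.

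Leaving out NER replicate 3 and LER+LIG replicates 2 and 3 together, which leaves 1 LER+LIG library, made the larger changes. These were the libraries in which the members were highest, so lower LER+LIG medians were set by that choice. The member median became -0.14 for LER+LIG against LER, with 7 members (16.3%) and 3922 genes (26.7%) called, and -0.24 for LER+LIG against NER, with 5 members (11.6%) and 2731 genes (18.6%) called. With the length offset as well these were -0.19, 4 (9.30%) and 3281 (22.4%), and -0.17, 4 (9.30%) and 1948 (13.3%). The LER+LIG against LER estimates then were -0.36 for Oas3, -0.80 for Oasl, -1.90 for Mx1, -0.998 for Mx2, -0.51 for Zbp1, -0.90 for Ifih1, -0.65 for Dhx58, -0.72 for Irf7, -0.0326 for Cxcl11, -0.38 for Cxcl9, -0.35 for Isg15, -0.44 for Oas1a, -0.0795 for Stat2, -1.99 for Ddx58 and -0.24 for Igtp. With the offset they were -0.26 for Oas3, -0.73 for Oasl, -1.77 for Mx1, -0.57 for Mx2, -0.27 for Zbp1, -0.70 for Ifih1, -0.59 for Dhx58, -0.0391 for Irf9, -0.0178 for Irf1, -0.79 for Irf7, -0.22 for Cxcl11, -0.60 for Cxcl9, -0.59 for Isg15, -0.19 for Oas1a and -2.12 for Ddx58. Zbp1 in LER against NER became 0.18, or 0.20 with the offset, and Ifit2 in LER+LIG against NER became -0.0147. The lone library is assumed to vary like the other groups, and the cause of these changes was not tested. Allowing 1 mismatch in the ISRE letters raised the promoters with a match to 28 of 35 members, or 80.0%, and 12628 of 33469 promoters, or 37.7%.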
